A study of Drosophila melanogaster with 8 samples.

Results

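Nuclear genes of the oxidative phosphorylation system were taken from 8 gene tables by symbol, as those starting with ND-, SdhA to SdhD, UQCR-, COX4 to COX8 or ATPsyn. The rule found 80 of the 17868 genes, and all 80 matched the annotation used for coordinates. By symbol, 40 belonged to complex I, 6 to complex II, 8 to complex III, 11 to complex IV and 15 to complex V. The mitochondrial complexes are built from products of many of these genes, of nuclear genes under other symbols and of a few genes of mitochondrial DNA. Complex I (NADH dehydrogenase) and complex II (succinate dehydrogenase) pass electrons to ubiquinone, complex III (cytochrome bc1) passes them to cytochrome c, and complex IV (cytochrome c oxidase) passes them to oxygen. Complex V (ATP synthase) makes ATP from the proton gradient that complexes I, III and IV build, and neurons draw on it to restore ion gradients after firing.

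RNA came from clock neurons of adult Drosophila melanogaster brains, sorted for nuclear green fluorescent protein and against the dead-cell stain DAPI. The genotype of every library was ClkGAL4 and UAS-GFP-NLS over UAS-mor-RNAi, so that RNA interference against mor, a subunit of the Brahma chromatin remodelling complex, and the fluorescent protein were both driven wherever ClkGAL4 is active, and no library lacked the RNA interference. After entrainment to light-dark cycles, brains were taken during the second day of free run in darkness at 4 circadian times (CT0, CT6, CT12 and CT18, in hours), with 2 libraries per time. The labels give no age, and nothing in them ties replicates to separate flies or dissections, so the p-values reflect the spread among these libraries, which may be technical. The comparison over times asks whether RNA levels of respiratory chain genes follow a rhythm in neurons with this RNA interference.

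Total estimated counts ran from 15006258 (CT12 replicate 2) to 29346348 (CT0 replicate 1), and a count of 3 stood for 0.102 to 0.2 CPM (counts scaled to library size), a floor for counting error only. The markers of clock neurons summed to between 25936 and 107552 TPM (a scale that also divides by effective length), with 0 of 13 at 0 throughout. CT6 replicate 1 and CT18 replicate 1 had the lowest sums, 25936 and 37777 TPM. The sums ranked the libraries as the neuropeptide gene Pdf did, and so largely reflect 1 gene. Pdf was at 292 and 4590 TPM in those libraries and made up 93400 of the 107552 TPM in CT6 replicate 2. Dh31, the marker with the next highest mean, was at 12754 and 17821 TPM in those libraries, in a range of 5564 to 17821 TPM. In each library, expression followed the effective length of the transcript to a different degree. In CT6 replicate 1 long transcripts were relatively high (Spearman correlation 0.68 across 5766 genes), and in both CT18 libraries they were relatively low (-0.53 and -0.56). The smoothed trend in a library, read at the length of each gene of the respiratory chain and taken as the median over them, was -0.43 log2 units in CT6 replicate 1 against 0.06 in CT6 replicate 2. It was 0.31 and 0.20 at CT18, 0.21 and -0.25 at CT0, and 0.06 and -0.17 at CT12. The main comparisons below are therefore given with and without that trend, and several that rest on CT6 replicate 1 also without that library. TPM values are given as deposited, with the trend. The transcript of mor was measured at 1.15 to 7.17 TPM and cannot show the knockdown without a control genotype.

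Of the 80 genes, 61 had a mean of at least 50 TPM and 19 had less, a level chosen after the values were seen. The lowest of the 61 was ND-75 at 88.5 TPM and the highest of the 19 was COX7AL at 17.7 TPM. The 61 were detected in all 8 libraries. Together the 80 genes made up between 2.32% (CT6 replicate 1) and 3.73% (CT18 replicate 1) of the counts and between 4.87% and 7.08% of the TPM. The 13 mitochondrially encoded genes made up 0.0691% to 0.191% of the counts, in libraries made from polyadenylated RNA.

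**Figure D1:**
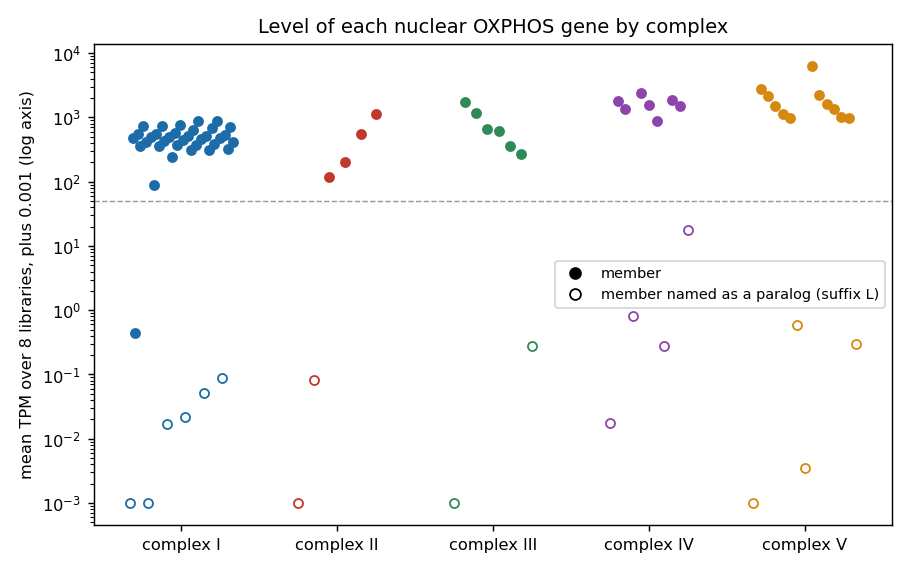
Mean TPM over 8 libraries (log axis, with 0.001 added so that genes at 0 can be drawn) of each of the 80 genes, by complex. Filled points are members and open points members named as paralogs of another gene by the suffix L; the dashed line is at 50 TPM. The 61 genes above the line run from 88.5 TPM (ND-75) to 6338 TPM (ATPsynC), and 18 of the 19 below it are paralogs.

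Levels differed between complexes in an order that was the same in every library except for complexes IV and V. The median over a complex's genes at 50 TPM or more, on the TPM scale, was 1541 TPM for complex IV (7 genes), 1531 for complex V (11), 631 for complex III (6), 474 for complex I (33) and 381 for complex II (4). Complexes IV and V were above complex III, complex III above complex I, and complex II was the lowest, in 8 of 8 libraries. Complex IV was above complex V in 5 libraries and below it in 3, so those neighbours in the order did not differ beyond their spread. Among the complex I genes at 50 TPM or more, the lowest level apart from ND-75 was that of ND-MNLL at 238 TPM, whose exons lie wholly within those of CG45089 on the same strand, and the highest was that of ND-B16.6 (the homolog of NDUFA13) at 875 TPM.

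ATPsynC, which encodes the subunit of the rotating c ring of ATP synthase, had the highest level of all. Its values were 5668 and 6798 TPM at CT0, 4889 and 6192 at CT6, 6524 and 5063 at CT12, then 8383 and 7185 at CT18. Both CT18 libraries were above the other 6, while the other times overlapped. ATPsynbeta, the catalytic subunit of the F1 head, followed at a mean of 2727 TPM, and its partner in the catalytic hexamer, the alpha subunit blw, had a mean of 1122 TPM. The lowest genes of complex V at 50 TPM or more were ATPsyndelta (965 TPM), a central stalk subunit, and ATPsynE (978 TPM). COX4, a nuclear subunit of complex IV with a regulatory role in mammals, was at 2426 TPM and COX7C at 892 TPM. In complex III the range was from 273 TPM for the core protein UQCR-C2 to 1711 TPM for the small subunit UQCR-Q.

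The subunits of complex II were at unequal levels, although the enzyme holds each of its 4 subunits once. SdhC, a membrane anchor, had 1068 and 1002 TPM at CT0, 851 and 1026 at CT6, 1143 and 1004 at CT12, then 1396 and 1447 at CT18. SdhD, the other anchor, had 508, 551, 422, 502, 566, 485, 750 and 696 TPM in the same order. For both genes, both CT18 libraries were above all the others and CT6 replicate 1 was the lowest. The ratio of SdhD to SdhC stayed between 0.476 and 0.551 in the 8 libraries. SdhA, the flavoprotein that oxidises succinate, and SdhB, the iron-sulphur subunit, had means of 203 and 117 TPM, below both anchors in every library.

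The spread over the 8 libraries, without regard to time, was small for most genes. The median coefficient of variation of TPM over the 61 genes was 17.7%. It was 8.32% for ATPsyngamma, the rotating central stalk subunit, and 9.38% for the complex I subunit ND-42. It was 77.9% for ND-75, 74.3% for SdhB, 39.9% for UQCR-C2 and 32.3% for SdhA.

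Paralogs were nearly silent. Of the 80 genes, 18 carry the symbol of another subunit plus L (16 with a partner among the 80; COX6AL and ATPsynepsilonL are named after subunits whose genes are levy and sun). Of the 18, 17 had under 100 estimated counts over all 8 libraries, while their partners ran from 117 TPM (SdhB) upwards. ND-20L, ND-B14.5AL, UQCR-14L, SdhBL and ATPsynGL had no count in any library. ND-49L, ND-24L, COX6AL and ATPsynbetaL had a count in 1 library, with at most 0.168 TPM. ND-51L1 and ND-51L2, both named after ND-51, had at most 0.145 and 0.342 TPM, against 425 TPM for ND-51. COX5BL was found in the CT6 libraries alone, at 0.75 and 1.44 TPM on 18.5 counts in all. SdhAL had 0.187 TPM in CT0 replicate 1 and 0.203 and 0.254 TPM at CT18, and was at 0 elsewhere. COX4L was found in all 8 libraries but at 1.83 TPM or less, on 68 counts, against 2426 TPM for COX4. UQCR-11L, ATPsynCF6L and ATPsynepsilonL reached 0.961, 0.843 and 2.02 TPM at most. Duplicates of respiratory chain genes are known in Drosophila for expression in the testis, and of 13 testis markers 6 were at 0 in every library (dj, Mst84Da, Mst84Db, Mst98Ca, Mst87F and aly). The 13 summed to between 111 and 194 TPM, of which bol made up 101 to 173 TPM and twe 4.73 to 17.0 TPM.

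COX7AL was the exception among the paralogs. It had 22.8 and 10.9 TPM at CT0, 16.7 and 10.1 at CT6, 27.0 and 15.4 at CT12, then 24.6 and 14.1 at CT18, on 1106 counts in all. It was detected in 8 of 8 libraries. Replicate 1 was above replicate 2 at each time, and the times overlapped. Its partner COX7A had a mean of 1886 TPM.

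Among the subunits that are not named as paralogs, 1 was near 0. ND-B8, annotated as the homolog of NDUFA2, an accessory subunit of complex I (FBgn0040705, 2L 4454626 to 4455207), had 0.745 and 0.598 TPM at CT0, 0 and 0.224 at CT6, 0.505 and 0 at CT12, then 0 and 1.49 at CT18. It had 18 counts over 5 libraries, while the other 33 complex I genes that are not paralogs had at least 31.9 TPM in every library. Its exons overlap those of Gs1l on the opposite strand over 15.4% of their length, and the sources used here do not state whether strand was used in counting.

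No gene of the respiratory chain passed a test of change with time of day. The count model (edgeR's quasi-likelihood test on the rounded counts, Benjamini-Hochberg adjustment over 9999 genes) tested 64 of the 80 genes, and a gene was called at an adjusted p under 0.05. Those called were 0 of 64 for any change over the 4 times, for a 24-hour harmonic, for CT12 against CT0 and for CT18 against CT6, where 0% of all genes were called in each of the 4 tests. The smallest adjusted p of the 64 were 1, 0.87, 1 and 0.51. DESeq2 also called 0 of the 64 in each, with 0.28%, 0.33%, 0.12% and 0.47% of all genes called. The tests could miss small rhythms. In simulated data without a length trend, edgeR's harmonic test recovered 4.35% of rhythms with a log2 amplitude of 0.5 and 41.7% of those with 1. Those rhythms were placed in genes drawn from all genes tested, so the rates for respiratory chain genes may differ. The median fitted amplitude of the 64 genes was 0.27, so 0 calls do not show that rhythms of that size are absent. At an unadjusted p under 0.05, edgeR gave 0 genes for any change (3.3% of all genes), 0 for the harmonic (5.17%), 0 for CT12 against CT0 (2.11%) and 14 for CT18 against CT6 (9.65%). With the length trend removed the last became 1 of 64 (6.13% of all genes). Without the filter on low counts, edgeR set the spread of each gene to that fitted for genes at a like level. It then called ND-75 and SdhB for any change, for the harmonic and for CT18 against CT6 (1.84%, 1.85% and 1.42% of all genes). For CT12 against CT0 it called 0 of the members (0.748%). Both genes were highest in CT6 replicate 1, at 251 and 328 TPM.

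**Figure D2:**
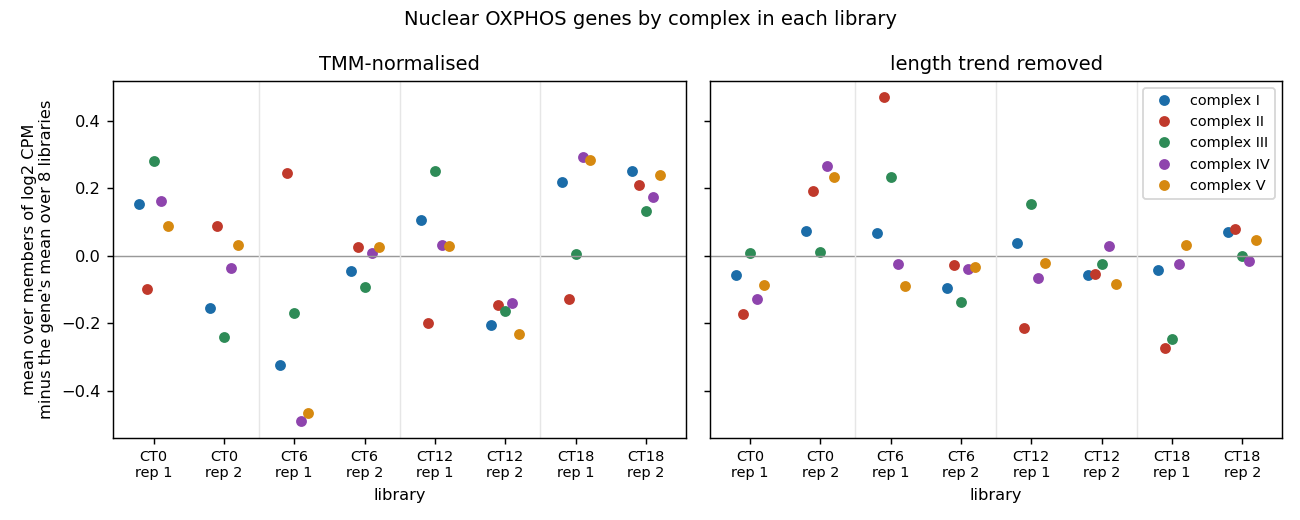
Mean over the genes of each complex of log2 CPM minus the gene's own mean over 8 libraries, for the genes that passed the filter with at least 50 TPM, in each library (points coloured by complex), as normalised by TMM (left) and with each library's length trend removed (right). On the left, complexes I, IV and V are lowest in CT6 replicate 1 (-0.32, -0.49 and -0.47) and above 0 in both CT18 libraries; on the right, the CT6 and CT18 libraries overlap for complexes I to IV.

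The larger of the shifts compared was between the middle of the subjective day and the middle of the subjective night. From CT6 to CT18 the fitted log2 change was above 0 for 56 of the 64 genes, where 48.4% of all genes were above 0. Its median was 0.48 log2 units (a ratio of 1.39), against -0.02 over all genes. Both CT18 libraries were above both CT6 libraries for 49 of the 64, where this held for 20.1% of all genes. The reverse, both CT6 libraries above both CT18 libraries, held for SdhA and ND-51 alone, where it held for 21.6% of all genes. Of the 61 genes at 50 TPM or more, 51 had their highest mean CPM at CT18 and 51 their lowest at CT6, and 43 had their lowest value of the 8 libraries in CT6 replicate 1. The shares of all genes in these counts were not computed. Among all genes, too, short transcripts were relatively low in CT6 replicate 1.

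The shift was smaller once the length trend was removed. Then 37 of 64 genes were above 0 (47.6% of all genes), and the median was 0.04 log2 units against -0.02 over all genes. Both CT18 libraries were then above both CT6 libraries for 17 genes, where this held for 17.1% of all genes, and the reverse held for 6 (19.1%). Without CT6 replicate 1 the median was 0.26, and it was 0.07 with the trend removed as well; without CT6 replicate 2 it was 0.72. The library in which genes were highest also moved. Once the trend was removed, 27 of the 61 were highest in CT0 replicate 2, a library that was highest for 0 of them before. The share of all genes was not computed here either.

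The median shift was of like size in 4 of the 5 complexes, and differences between complexes were not tested. Medians from CT6 to CT18 were 0.47 log2 units for complex I (30 of 33 genes above 0), 0.52 for complex III (4 of 6), 0.43 for complex IV (8 of 9 tested) and 0.47 for complex V (11 of 11). With the trend removed they were 0.04, 0.05, -0.001 and 0.03. Complex II had a median of 0.62 over 5 tested genes, but 1 of them, SdhAL, was tested on 32 counts in 3 libraries. Over the 4 genes at 50 TPM or more its median was -0.01, with 2 genes above 0 and 2 below, and -0.06 with the trend removed. Mean centred log2 CPM at CT18 was 0.23 ± 0.02 for complex I (SD, n = 2), 0.23 ± 0.08 for complex IV and 0.26 ± 0.03 for complex V. At CT6 it was -0.18 ± 0.20, -0.24 ± 0.35 and -0.22 ± 0.35, with CT6 replicate 1 the lower in each. Complex III was split, with its 2 core genes below 0 and its 4 others above. Its mean was 0.07 ± 0.09 at CT18 and -0.13 ± 0.05 at CT6, a smaller shift than its median. With the trend removed it was -0.12 ± 0.17 at CT18 and 0.05 ± 0.26 at CT6. After removal of the trend, complex V was at 0.04 ± 0.01 at CT18 and -0.06 ± 0.04 at CT6 (SD, n = 2), without overlap of the libraries, and 8 of its 11 genes were above 0. At CT0 it was at 0.07 ± 0.23, a range that covered both, and at CT12 at -0.05 ± 0.04.

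Within complex I, the largest fitted change from CT6 to CT18 was that of ND-B17.2, the homolog of NDUFA12. Its values were 593 and 616 TPM at CT6 and 1131 and 887 TPM at CT18, with 804 and 549 at CT0 and 918 and 667 at CT12. The CT18 libraries were above both CT6 libraries and overlapped those of CT12. The change was 0.80 ± 0.32 log2 units (SE, edgeR adjusted p = 0.51), and 0.34 with the trend removed. ND-19 (282 to 461 TPM) and ND-PDSW (702 to 1153 TPM), accessory subunits with the smallest p for any change in complex I, were highest in the 2 CT18 libraries, at 461 and 458 TPM and at 1153 and 1109 TPM. Their changes from CT6 to CT18 were 0.60 ± 0.25 and 0.67 ± 0.27, and 0.13 and 0.22 with the trend removed.

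In complex V, both CT18 libraries were above both CT6 libraries in CPM for all 11 genes at 50 TPM or more (20.1% of all genes). With the trend removed this held for 4 of the 11 (17.1% of all genes), and the reverse held for 1, ATPsyngamma (19.1%). ATPsynD, subunit d of the peripheral stalk, had 1701 and 2010 TPM at CT6 and 2884 and 2894 TPM at CT18, with 2099 and 2118 at CT0 and 2349 and 2014 at CT12. Its change was the largest of the complex, 0.65 ± 0.27 log2 units (edgeR adjusted p = 0.51), and 0.23 with the trend removed. ATPsyngamma had the smallest, 0.25 ± 0.24, with values from 930 to 1133 TPM over the 8 libraries. ATPsynbeta, at an effective length of 1555 bases, was measured at 3032 and 1864 TPM at CT6 and 3712 and 2561 at CT18, and the libraries overlapped on this scale. Its fitted change was 0.45 ± 0.26, and 0.44 with the trend removed, the largest value in the complex there. Without CT18 replicate 1 that value was 0.17.

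In complex IV, the genes at 50 TPM or more moved within a narrow band, between 0.35 and 0.55 log2 units, and between -0.08 and 0.11 with the trend removed. COX4 had 2200 and 2432 TPM at CT0, 2073 and 2231 at CT6, 2356 and 2337 at CT12, then 3055 and 2723 at CT18, so that both CT18 libraries were above the others. COX5B, a zinc-binding subunit, had 1357, 1189, 1075, 1265, 1373, 1278, 1729 and 1590 TPM in the same order, also highest at CT18. COX5A was at 1293 and 1340 TPM at CT6 and 1938 and 1736 at CT18. Their changes were 0.42 ± 0.24, 0.55 ± 0.27 and 0.50 ± 0.23 (edgeR adjusted p = 0.55, 0.52 and 0.51).

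The genes that went the other way were, apart from SdhB, long ones. Of the 61 genes, 7 had a fitted change from CT6 to CT18 below 0. They were ND-75, SdhB, UQCR-C2, SdhA, UQCR-C1, ND-51 and ND-39, with values of -1.33, -1.24, -0.65, -0.63, -0.31, -0.19 and -0.01 log2 units. Without CT18 replicate 1, UQCR-C1 and ND-39 turned to 0.06 and 0.18, and without CT6 replicate 1, ND-75 and ND-39 turned to 0.06 and 0.08. By class of effective length, 17 of 17 genes under 300 bases and 27 of 27 from 300 to 600 bases were above 0. From 600 to 1000 bases it was 7 of 8, and at 1000 bases or more 3 of 9 (ND-42, ND-49 and ATPsynbeta). Class medians were 0.47, 0.53, 0.35 and -0.19 log2 units, and the medians over all genes in the same classes were 0.36, 0.40, 0.32 and -0.20. With the trend removed, class medians of the 61 genes were 0.03, 0.09, -0.02 and -0.28. Across the 61 genes the Spearman correlation of the change with length was -0.38, and -0.12 with the trend removed; the genes share the same libraries and are not independent.

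**Figure D3:**
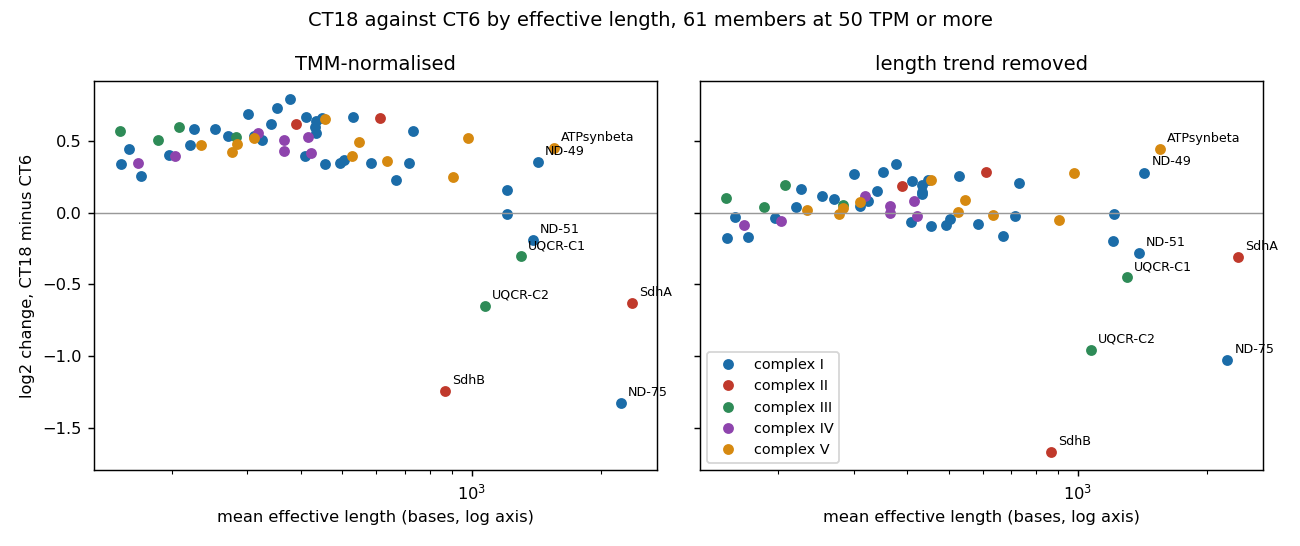
Fitted log2 change from CT6 to CT18 (edgeR) against mean effective length in bases (log axis) for the 61 genes at 50 TPM or more, coloured by complex, as normalised by TMM (left) and with each library's length trend removed (right). All 44 genes under 600 bases lie between 0.25 and 0.80 on the left and between -0.18 and 0.34 on the right, while SdhB, ND-75 and UQCR-C2 stay at -1.67, -1.03 and -0.96 on the right.

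SdhB (FBgn0014028, 2R 6807626 to 6809172) had 75.9 and 112 TPM at CT0, 328 and 88.7 at CT6, 70.8 and 95.1 at CT12, then 61.7 and 103 at CT18. CT6 replicate 1 was far above the other 7 libraries, and CT6 replicate 2 lay inside their range. The change from CT6 to CT18 was -1.24 ± 0.48 log2 units (edgeR adjusted p = 0.51), and -1.67 ± 0.58 with the trend removed (adjusted p = 0.78). Without CT6 replicate 1 it was -0.28 ± 0.40, and -0.42 ± 0.42 with the trend removed.

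ND-75 (FBgn0017566, X 8248651 to 8251687), the homolog of NDUFS1 and the largest iron-sulphur subunit of complex I, had 49.9 and 77.7 TPM at CT0, 251 and 45.8 at CT6, 84.5 and 91.3 at CT12, then 31.9 and 75.6 at CT18. CT6 replicate 1 was again the highest of the 8 and CT18 replicate 1 the lowest. The change was -1.33 ± 0.61 (edgeR adjusted p = 0.51), and -1.03 ± 0.59 with the trend removed. Without CT6 replicate 1 it turned to 0.06 ± 0.50, and to 0.23 ± 0.47 with the trend removed. ND-75 works beside ND-51 and ND-24 in the arm that oxidises NADH. ND-51 was at 370 to 541 TPM and ND-24 at 307 to 445 TPM. The ratio of ND-75 to ND-51 ran from 0.084 in CT18 replicate 1 to 0.464 in CT6 replicate 1 (0.216 at most without that library), while that of ND-24 to ND-51 stayed between 0.680 and 1.06.

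UQCR-C2 (FBgn0250814, 3L 16584124 to 16586111) and UQCR-C1, the core proteins of complex III, shared the highest and the lowest library. UQCR-C2 had 199 and 276 TPM at CT0, 489 and 193 at CT6, 269 and 341 at CT12, then 132 and 284 at CT18. UQCR-C1 had 531 and 744, 885 and 563, 702 and 690, and 430 and 704 TPM at the same times. In both genes CT6 replicate 1 was the highest and CT18 replicate 1 the lowest, and the CT6 and CT18 libraries overlapped. Without CT6 replicate 1 the change of UQCR-C2 from CT6 to CT18 was -0.05 ± 0.46 in place of -0.65 ± 0.44, and without CT18 replicate 1 it was -0.16 ± 0.43. That of UQCR-C1 (-0.31 ± 0.31) was -0.16 ± 0.36 and 0.06 ± 0.32 in the same settings. The 4 other genes of complex III at 50 TPM or more are short (median effective length 197 bases) and had changes of 0.51 to 0.60, led by UQCR-Q at 0.60 ± 0.32. UQCR-14 had 1053 and 994 TPM at CT6 and 1581 and 1216 at CT18, and its exons lie wholly within those of CG32576 on the opposite strand.

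SdhA (2R 19391863 to 19395971) had both CT6 libraries above both CT18 libraries. With the trend removed this no longer held for SdhA (log2 CPM of 9.14 and 8.79 at CT6, 8.52 and 8.80 at CT18), while it then held for SdhB (8.19 and 6.27, against 5.37 and 6.22). Its values were 154 and 232 TPM at CT0, 347 and 178 at CT6, 166 and 221 at CT12, then 150 and 173 at CT18, with CT6 replicate 2 and CT18 replicate 2 close together. The change was -0.63 ± 0.30 (edgeR adjusted p = 0.52), -0.33 ± 0.32 without CT6 replicate 1, and -0.31 ± 0.22 with the trend removed. Relative to SdhC, SdhA ran from 0.108 in CT18 replicate 1 to 0.408 in CT6 replicate 1, and SdhB from 0.044 to 0.385 in the same libraries. Without CT6 replicate 1 the highest of these ratios were 0.232 and 0.112. They are ratios of TPM, with no removal of the length trend, between genes of unlike length.

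**Figure D4:**
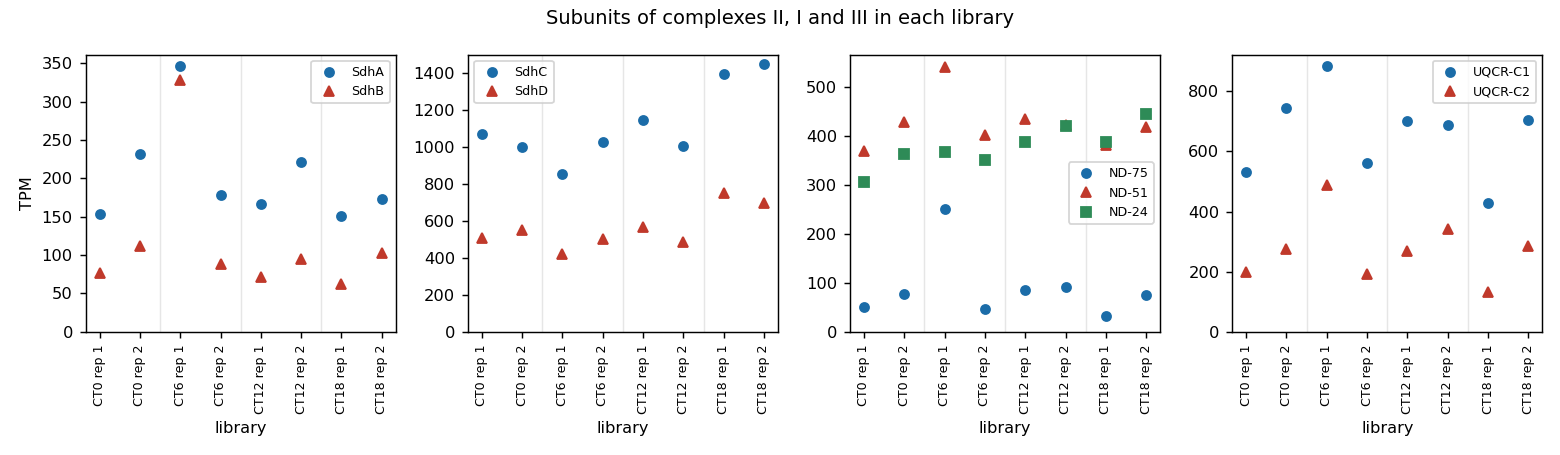
TPM (linear axes starting at 0) in each of the 8 libraries of SdhA and SdhB, of SdhC and SdhD, of ND-75, ND-51 and ND-24, and of UQCR-C1 and UQCR-C2. SdhB and ND-75 stand at 328 and 251 TPM in CT6 replicate 1, against at most 112 and 91.3 TPM in the other 7 libraries, while SdhC is lowest there at 851 TPM.

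In CT6 replicate 1 Pdf was also lowest and the neuron markers highest, while the other marker sums below lay inside the other libraries' range. The neuropeptide gene Pdf was at 292 TPM there, against 4590 TPM in CT18 replicate 1 and at least 24428 TPM in the other 6 libraries. The summed markers of neurons were highest there, 1804 TPM against 951 to 1542 in the other libraries. Hemocyte markers summed to 38.8 and 29.3 TPM at CT6 and 5.01 and 16.9 at CT18, with a range of 5.01 to 61.1 over the 8 libraries. Glial markers summed to 124 and 86.1 TPM at CT6 and 170 and 150 at CT18. Muscle markers, from a tissue rich in these genes, summed to 0.632 to 3.18 TPM, with Mhc at 0. Photoreceptor markers ran from 23.3 to 288 TPM and fat body markers from 0 to 3.76 TPM. The part of the neuronal, glial, hemocyte and photoreceptor RNA in the results was not tested. In bulk samples, fewer cells of a type and less RNA per cell cannot be told apart.

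From CT0 to CT12, the starts of the subjective day and night, little differed. The fitted change was above 0 for 9 of 64 genes (50.8% of all genes) with a median of -0.11 log2 units, against 0.004 over all genes. Without the length trend, it was above 0 for 15 (51.8%), with a median of -0.06 against 0.01. Both CT12 libraries were above both CT0 libraries for ND-18, ND-24 and ND-75, 3 of 64, where this held for 12% of all genes, and the reverse held for 7 (13.1%). With the trend removed these were 1 (13.5%) and 4 (14%). The median turned to 0.02 without CT0 replicate 1 and to 0.03 without CT12 replicate 2. On the scale of log2(TPM + 1) it was 0.10, with 53 of 64 above 0, and the median of all genes also moved, to 0.12, with 6721 of 9999 above 0. The direction from CT0 to CT12 thus depends on the scaling.

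Pooled over complexes, genes of a complex varied together over the 8 libraries about as much as genes of different complexes. The pooled value mostly describes complex I, which held 528 of the 625 pairs within a complex, and single complexes differed from it. The median Pearson correlation of centred log2 CPM was 0.77 between genes of the same complex and 0.73 between genes of different complexes, over the 61 genes, and 0.25 and 0.24 with the trend removed. It was 0.87 within complex IV and within complex V, and 0.60 and 0.57 with the trend removed, against 0.76 and 0.19 within complex I. It was -0.71 in complex II and -0.56 in complex III, and -0.06 and -0.17 with the trend removed. These are descriptions over 8 libraries that share depth and the length trend.

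Subunits outside the symbol rule had a median shift near that of the members. Of the 7 (blw, sun, RFeSP, Cyt-c1, ox, cype and levy), 6 were above 0 from CT6 to CT18, with a median of 0.40 log2 units, and 3 with a median of -0.03 with the trend removed. The highest was cype, a complex IV subunit, with a mean of 2339 TPM, and the smallest p for any change was that of levy (mean 1948 TPM), the partner of COX6AL. The 6 assembly factors, among them Surf1 and Coa8, had a median of 0.44, and 0.08 with the trend removed. The 11 mitochondrially encoded genes tested, led by COX2 at 1124 TPM and with COX1 at 899 TPM, had 0.40, and -0.15 with the trend removed.

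Among neighbouring pathways, the median change from CT6 to CT18 was 0.03 for 7 carriers (Cyt-c-p, the mobile carrier between complexes III and IV, and the ADP/ATP exchanger sesB among them), 0.03 for 10 genes of the citric acid cycle (including kdn, citrate synthase, and Mdh2) and -0.15 for 8 regulators (including ewg and TFAM). With the trend removed these were -0.15, -0.07 and -0.17. The 73 genes of mitochondrial ribosomal proteins had a median of 0.54, with 70 above 0, and a median of 0.14, with 60 above 0, once the trend was removed. The 86 cytoplasmic ribosomal protein genes tested had 75 above 0 (median 0.19), and 7 above 0 (median -0.22) with the trend removed. In edgeR 0 genes of these 8 lists were called in any of the 4 tests, and differences between lists were not tested.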

How the data were processed

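Polyadenylated RNA of 8 libraries of sorted clock neurons was analysed. Per the file headers, the deposited tables, in the layout of Salmon, give for each gene an estimated count (not normalized), a TPM value and an effective length. The submitters' processing notes name DRAGEN, Salmon and dm6; their roles, versions and annotation, and any use of strand, are not stated in what was used here. The authors' TPM values divide by length and by library, and TPM is used here for levels.

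Counts were rounded, filtered (filterByExpr, minimum count 10) and TMM-normalized. The test was edgeR 4.0.16 in R 4.3.3 (quasi-likelihood, 4 levels of time, 4 residual degrees of freedom, two-sided) with Benjamini-Hochberg adjustment over 9999 genes at 0.05, checked on simulated data. Changes are differences in log2, and values per library are log2 CPM with a prior count of 1. The trend against effective length was a lowess (span 0.3) per library on genes averaging 4 or more in log2 CPM, entered as an offset. Alternatives were RLE size factors, DESeq2 1.42.0, limma-voom (limma 3.58.1), log2 TPM with pseudocounts of 1 and 0.1, other filters, other forms of the length correction, a replicate block, no mitochondrially encoded genes, fits on 1 contrast's libraries, and each library left out in turn. Replicate numbers were not used to pair the libraries in the main fit, because the labels do not say what they share. The correlations of same-numbered libraries' deviations over all genes were -0.066 to 0.23. Total counts and the share of counts from mitochondrially encoded genes were nonetheless higher in replicate 1 at each of the 4 times, and Pdf was lower.

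Named genes were, per complex, the 2 with the smallest p for any change, the highest and lowest in TPM, those with the largest and smallest change from CT6 to CT18, and all paralogs; others were named after their values were seen. The members and lists were chosen with earlier results of these data known. Coordinates are from Ensembl release 115 (BDGP6.54), which need not be the authors' annotation. No sequence is shown, because no sequence of these genes was used here.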

Additional observations from a re-analysis of the deposited data

How the results depend on the processing

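The call of 0 genes held for CT12 against CT0 under every alternative run, and for the other 3 tests under all but 1: without the filter on low counts, 2 genes (ND-75 and SdhB) were called for any change, for the harmonic and for CT18 against CT6. A replicate block gave 0 calls and a median change from CT6 to CT18 of 0.468, so the pairing changed no call; the share of counts from mitochondrially encoded genes was higher in replicate 1 at each of the 4 times. The median from CT6 to CT18 (0.478 log2 units) was 0.04122 with the length trend removed, 0.02405 when that trend was fitted without these genes and ribosomal proteins, and -0.01587 with a straight-line trend. In the same order it was 0.04341, 0.03266 and 0.01205 for complex I, 0.1873, 0.1796 and 0.1711 for complex II, 0.04575, 0.02012 and -0.2707 for complex III, -0.001331, -0.01094 and -0.01411 for complex IV, and 0.03124, 0.01545 and 0.08527 for complex V. Complex II, with 5 tested genes, also moved to -0.01018 with a filter of 5 CPM in 2 libraries, 0.02875 with the CT18 and CT6 libraries alone, 0.2966 with log2(TPM + 1) and -0.006657 over genes at 50 TPM or more. The median from CT0 to CT12 was 0.0985 with log2(TPM + 1) and 0.09859 with log2(TPM + 0.1).

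Leaving out each library in turn, the median from CT6 to CT18 ran from 0.2627 (without CT6 replicate 1) to 0.7185 (without CT6 replicate 2), and from 0.01544 to 0.07166 with the trend removed as well, a setting added after the data were seen. The ranges without and with the trend removed were 0.2838 to 0.7082 and 0.01226 to 0.0918 for complex I, 0.3515 to 0.9449 and 0.05219 to 0.2918 for complex II, 0.2643 to 0.6819 and -0.06264 to 0.1167 for complex III, 0.3003 to 0.6906 and -0.05242 to 0.093 for complex IV, and 0.2124 to 0.7742 and 0.04192 to 0.09385 for complex V. The median from CT0 to CT12 ran from -0.2762 to 0.02994, and up to 0.04883 with the trend removed.

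Signs of some single genes from CT6 to CT18 turned, all without a call. With the trend removed, ATPsyngamma was at -0.0507 and COX4 at -0.02209. With the trend fitted without these genes, ATPsyndelta, ATPsyngamma and COX4 were at -0.001916, -0.05251 and -0.03. With a straight line, COX4, UQCR-14 and UQCR-Q were at -0.01411, -0.08201 and -0.04013. COX4L, on 68 counts, was at -0.0008 in the main fit, a value near 0. It was at 0.03452 with the contrast's libraries alone, 0.02182 with DESeq2 and 0.00895 with RLE. With a length offset it was at 0.04095, with no filter at 0.04805 and with the block at 0.8745. Over all alternatives, with the trend kept or removed, ranges of genes named by the rule that crossed 0 were -0.1553 to 0.8569 for ATPsyndelta, -0.08586 to 0.4599 for ATPsyngamma, -0.06222 to 0.6459 for COX4, -2.577 to 0.9987 for COX4L, -0.01928 to 0.7029 for COX5A, -0.2681 to 0.9806 for COX7AL, -0.07486 to 0.6585 for ND-19, -2.166 to 0.2296 for ND-75, -0.08495 to 0.6637 for UQCR-14 and -0.04013 to 1.092 for UQCR-Q. The ends below 0, apart from those of COX4L and ND-75, came with the trend removed. With single libraries left out and the trend kept, COX4L and ND-75 alone of the genes named by the rule turned. UQCR-C1 and ND-39, which the rule did not name, turned as well. Leaving out 1 CT6 or CT18 library with the trend kept, UQCR-C1 ran from -0.78 to 0.06, ND-39 from -0.23 to 0.18 and ND-42 from 0.02 to 0.30. With the trend removed as well, they ran from -0.90 to -0.10, from -0.39 to 0.03 and from -0.13 to 0.11. For these turns the cause was not tested. With 2 libraries a time, and TPM means near 0, depth limits what can be said of the paralogs.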
